A study of Mus musculus with 57 samples.

Results

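Megakaryocyte-erythroid progenitors (MEP) are marrow cells committed to forming red cells and platelets. The 8 libraries that the labels assign to this tissue, of 57 libraries in the series, were compared here: 4 from mice given a control antibody (mouse pools 1, 3, 5 and 7) and 4 from mice given an antibody against PAPP-A (labelled aPAPPA, pools 2, 4, 6 and 8). All mice were C57BL/6 males aged 8 weeks when dosing began, no genetic alteration is named, the antibodies were given for 4 weeks, and all 8 libraries belong to the batch labelled A. RNA was sequenced in bulk from sorted marrow cells, so a lower level of a transcript in a library can come from fewer cells of a type or from less RNA per cell, and these cannot be told apart. A pool is 1 sample, the number of mice in a pool and the identity of the control antibody are not given in the labels, and the p-values measure the spread between pools. The question of the comparison is how these progenitors differ in gene expression after PAPP-A is blocked.

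PAPP-A (pregnancy-associated plasma protein A) is a secreted metalloprotease that cuts insulin-like growth factor (IGF) binding proteins, chiefly IGFBP-4, and so frees IGF to bind its receptor. MEP arise from multipotent progenitors and split into an erythroid branch, governed by Gata1 and Klf1, and a megakaryocyte branch that turns on platelet genes such as Pf4 and Gp9. Erythroid cells import iron through the transferrin receptor, build haem in mitochondria and load it into globin.

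Levels are CPM, counts relative to library size after scaling by trimmed mean of M-values. The red cell carbonic anhydrase Car1, given as a marker of the sort, measured 3101, 1967, 2430 and 2179 CPM in control pools 1, 3, 5 and 7 and 3028, 1738, 2763 and 2230 CPM in treated pools 2, 4, 6 and 8. Klf1, the erythroid Kruppel-like factor, measured 270, 164, 199 and 213 CPM in the control pools and 249, 174, 285 and 256 CPM in the treated pools, with overlapping groups for both genes. Unscaled Klf1 levels were at most 3.13 CPM in granulocyte-monocyte progenitors (GMP), 11.2 CPM in haematopoietic stem cells (HSC) and 24.1 CPM in common lymphoid progenitors (CLP), below every MEP library. Over 11 MEP markers the summed level was 5222 to 7165 CPM in control and 4871 to 7309 CPM in treated libraries, and the lowest library was treated pool 4.

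Some libraries stood apart in transcripts of other cells. Treated pool 2 held 6426 CPM of 5 neutrophil markers, against 241 to 865 CPM in control libraries and 348 to 502 CPM in the other treated libraries. It also held 75.4 CPM of 3 plasma cell markers and 628 CPM of 5 reticulocyte and red cell markers, the highest of the 8 libraries in each case. Treated pool 4 held 88.7 CPM of 5 CLP and B cell markers, and control pool 3 held 64.0 CPM, while the other libraries held 19.2 to 37.8 CPM. Macrophage markers (5 genes) summed to 3.01 to 5.68 CPM in control and 5.85 to 17.8 CPM in treated libraries, without overlap. Several gene list counts are given with and without pools 2 or 4, and no library was left out of the main comparison. Total counts ran from 6886882 to 42471152, and the deepest library was control pool 7. Correlations of log CPM were 0.946 to 0.983 over the 12 pairs of libraries of 1 group and 0.953 to 0.985 over the 16 pairs across groups.

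**Figure D1:**
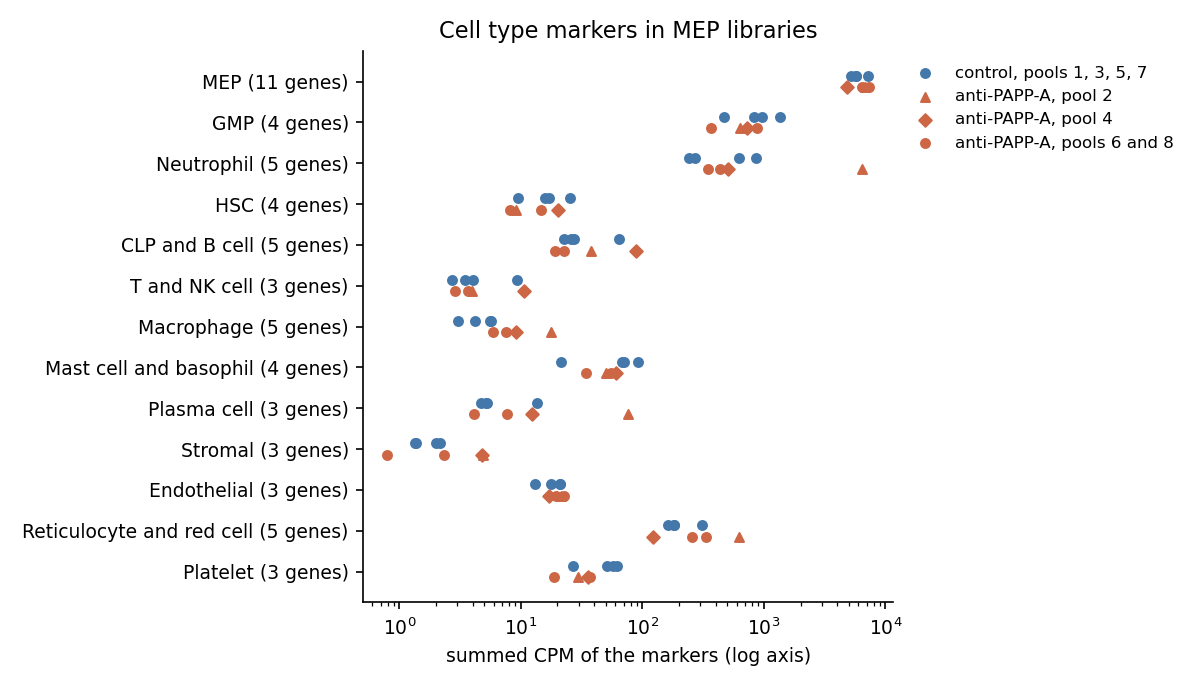
Summed CPM of each marker list (rows, log axis) in the 8 MEP libraries, with control pools as blue circles and treated pools in orange, pool 2 as a triangle and pool 4 as a diamond. Pool 2 lies apart for neutrophil markers at 6426 CPM and plasma cell markers at 75.4 CPM, and the MEP markers overlap between groups.

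No gene passed the threshold. Of 13307 genes tested, 0 (0%) had an edgeR quasi-likelihood adjusted p under 0.05, the lowest adjusted p was 0.173, and 444 genes (3.34%) had an unadjusted p under 0.05. Of those, 225 (1.69% of the genes tested) were lower and 219 (1.65%) higher in treated libraries, and the median log2 difference, treated minus control, was 0.0067. Leaving out treated pool 4 raised the unadjusted count to 1585, the most of any fit that left out 1 pool. Leaving out control pool 1 raised it to 715, and leaving out any other pool lowered it, to between 212 and 387. Several gene lists below are given without pool 4 only, and those counts come from the fit with the most genes under that threshold. DESeq2, the other count model, called 12 of 12501 genes (0.096%), 4 higher and 8 lower. These were both gene models named Pde2a, Klf4, Klf2, Hmox1, Ccdc117, Fosb, Il1rl1, Tiparp, Fos, Atf3 and Ppp1r15a. Below, a member of a gene list is counted where its unadjusted edgeR p was under 0.05, which describes the list and calls no gene.

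**Figure D2:**
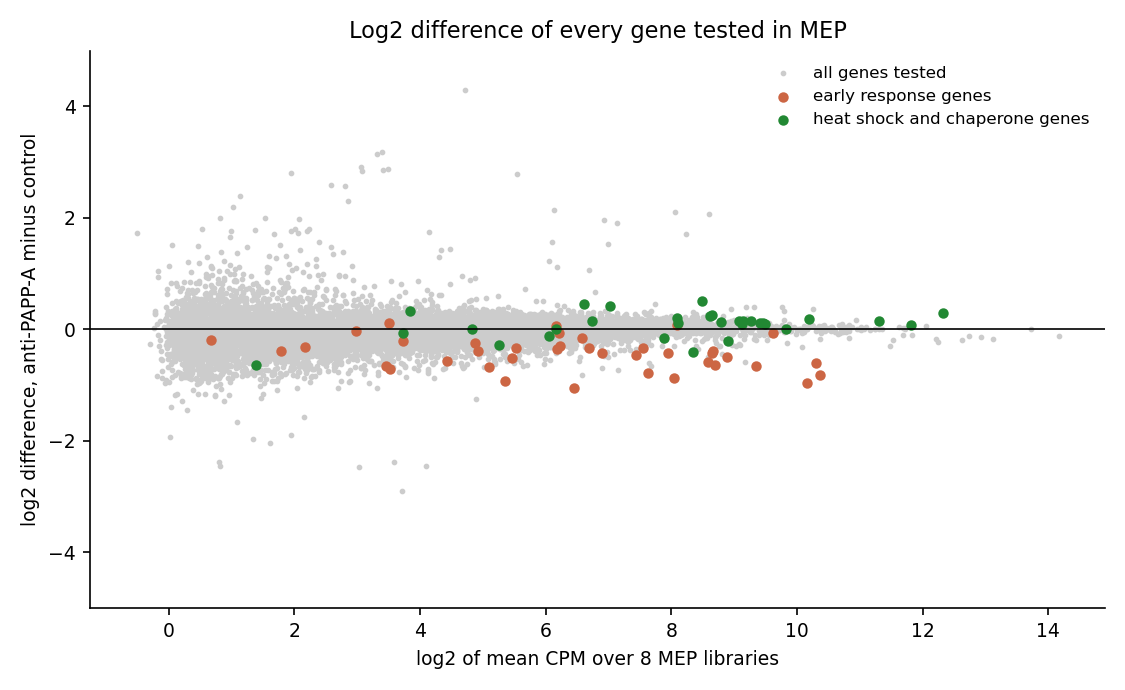
Log2 difference (treated minus control, y axis) against log2 mean CPM (x axis) for the genes tested in MEP, with early response genes in orange and heat shock genes in green. The early response genes lie mostly below 0, with a median of -0.43, against 0.0067 over all genes tested; 1 gene lies outside the axis.

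Early response genes made up 6 of the 8 genes that DESeq2 called lower in treated MEP. These genes are transcribed within minutes of a stimulus without new protein synthesis, through factors such as SRF and CREB already present on their promoters. Of 42 genes on the list 39 were tested, and 20 of the 39 were lower at the unadjusted threshold (background 1.69%), 0 were higher (background 1.65%), and 36 had a negative difference, against 48.1% of all genes tested. The median log2 difference was -0.43. In 8 of the 39 the groups did not overlap, with the treated pools lower (background 1.09%).

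The upstream sequences of 4 of these genes are shown because they carry the core of the cAMP response element, the site that CREB and ATF proteins bind. Each window runs from 250 bases before to 50 bases after a RefSeq transcription start in GRCm38.p6, 5′ to 3′ on the gene's strand, and capitals mark the core TGACG or its reverse complement, including the full element TGACGTCA where present.
Fos, chr12:85473640-85473939 (plus strand): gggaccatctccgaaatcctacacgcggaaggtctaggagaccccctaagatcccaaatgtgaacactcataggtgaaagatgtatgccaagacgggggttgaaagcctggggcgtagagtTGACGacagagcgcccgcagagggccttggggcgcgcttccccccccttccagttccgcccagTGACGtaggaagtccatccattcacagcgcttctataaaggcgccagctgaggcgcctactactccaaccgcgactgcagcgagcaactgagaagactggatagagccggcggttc
Klf2, chr8:72318812-72319111 (plus strand): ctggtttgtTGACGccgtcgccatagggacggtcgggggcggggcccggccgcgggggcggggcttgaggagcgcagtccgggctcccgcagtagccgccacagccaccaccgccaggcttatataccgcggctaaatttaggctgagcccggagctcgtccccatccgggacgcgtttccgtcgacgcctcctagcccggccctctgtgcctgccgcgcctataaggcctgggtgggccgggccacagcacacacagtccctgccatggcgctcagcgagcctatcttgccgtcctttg
Klf4, chr4:55532426-55532725 (minus strand): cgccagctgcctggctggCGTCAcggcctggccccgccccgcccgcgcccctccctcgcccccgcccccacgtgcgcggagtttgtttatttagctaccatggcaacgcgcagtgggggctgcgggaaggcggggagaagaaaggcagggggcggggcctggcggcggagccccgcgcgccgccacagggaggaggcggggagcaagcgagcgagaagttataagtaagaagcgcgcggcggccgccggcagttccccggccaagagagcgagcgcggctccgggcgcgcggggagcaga
Ppp1r15a, chr7:45526219-45526518 (minus strand): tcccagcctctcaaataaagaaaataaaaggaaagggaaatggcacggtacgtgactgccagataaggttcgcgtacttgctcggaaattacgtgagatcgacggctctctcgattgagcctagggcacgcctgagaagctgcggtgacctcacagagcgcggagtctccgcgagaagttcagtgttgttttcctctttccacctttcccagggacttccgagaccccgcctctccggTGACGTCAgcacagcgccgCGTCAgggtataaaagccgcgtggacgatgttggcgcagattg
The core stood in the windows of 23 of 34 early response genes with a window in the table, against 23.0% of 27025 genes. It also stood in 14 of 26 heat shock genes, a list that leaned upward. Early response genes not counted as lower, such as Nr4a1, Nr4a2 and Nr4a3, held it too. The full element TGACGTCA, which contains the core on both strands, stood in 4 of the 34 (Btg2, Dusp1, Maff and Ppp1r15a), against 2.03% of genes. Both strands were searched. The AP-1 site TGANTCA was found in 2 of the 34 (8.97% of genes) and the GC box GGGCGG in 29 of the 34 (38.2% of genes). These matches describe letters in the windows, and binding was not measured.

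Among the Kruppel-like factors, a family of zinc finger proteins, Klf4 and Klf2 showed separate groups. Klf4 (ENSMUSG00000003032.8, chromosome 4, 55527143 to 55532466, minus strand, GRCm38) measured 47.1, 52.9, 57.8 and 57.2 CPM in the control pools and 23.2, 35.2, 21.5 and 32.2 CPM in the treated pools. Every treated pool lay below every control pool, with means of 53.7 ± 4.95 and 28.0 ± 6.71 CPM (SD, n = 4 and 4). The log2 difference was -0.94 (SE 0.16, edgeR adjusted p = 0.540). DESeq2 gave an adjusted p of 0.000418, and over 17 alternatives the adjusted p ran from 0.000418 to 1. Klf2 (ENSMUSG00000055148.7, chromosome 8, 72319033 to 72321656, plus strand) measured 87.4, 99.2, 128 and 157 CPM in the control pools and 51.2, 57.4, 49.1 and 70.4 CPM in the treated pools. The groups did not overlap, and the log2 difference was -1.05 (SE 0.19, edgeR adjusted p = 0.658; DESeq2 0.000538, 0.000538 to 1 over 17 alternatives). Klf6 measured 341 ± 92.1 CPM in control and 185 ± 54.1 CPM in treated libraries (log2 -0.88, adjusted p = 0.999), and control pool 1 at 210 CPM lay among the treated values. Klf10 had a log2 difference of -0.16 and was not under the unadjusted threshold.

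The AP-1 subunits, which pair as Fos and Jun family dimers, leaned the same way. Fosb (chromosome 7, 19302696 to 19310051, minus strand) measured 1293, 1813, 1677 and 1269 CPM in the control pools and 597, 1102, 622 and 799 CPM in the treated pools. No treated pool reached the lowest control pool, and treated pool 4 was nearest to it (log2 -0.96, SE 0.20, edgeR adjusted p = 0.999; DESeq2 0.00669, 0.00669 to 1 over 17 alternatives). Fos (chromosome 12, 85473890 to 85477273, plus strand) measured 1287, 1760, 2093 and 1594 CPM in the control pools and 734, 1216, 814 and 1032 CPM in the treated pools. Its groups were separate by the gap between control pool 1 and treated pool 4 (log2 -0.83, SE 0.18, edgeR adjusted p = 0.999; DESeq2 0.0172, 0.0172 to 1). Jun overlapped, at 1516 ± 272 and 995 ± 356 CPM (log2 -0.61), since treated pool 4 stood at 1514 CPM. Junb (-0.43) and Jund (-0.49) also had an unadjusted p under 0.05 with overlapping groups. Fosl2 had a log2 difference of -0.22 and Batf of -0.03.

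Stress-linked members leaned lower as well. Atf3, a CREB-family factor induced by many stresses, measured 46.8, 31.4, 44.0 and 45.7 CPM in the control pools and 26.5, 28.8, 23.1 and 27.1 CPM in the treated pools. Control pool 3 was the closest to the treated values, and the groups did not overlap (log2 -0.67, SE 0.14, edgeR adjusted p = 0.876; DESeq2 0.0182, 0.0182 to 1 over 17 alternatives). Ppp1r15a, which encodes GADD34, a phosphatase subunit that restores translation after stress, measured 305, 272, 279 and 272 CPM in the control pools and 190, 241, 189 and 219 CPM in the treated pools. Its groups were separate as well (log2 -0.43, SE 0.10, edgeR adjusted p = 0.999; DESeq2 0.0458, 0.0458 to 1). The zinc finger factor Egr1 (log2 -0.66) and its relative Egr2 (-0.65), the MAP kinase phosphatases Dusp1 (-0.58) and Dusp5 (-0.56), the mRNA decay factor Zfp36 (-0.64), the GTPase Rhob (-0.78), Maff (-0.70), Csrnp1 (-0.51), Ier5 (-0.43) and Gadd45b (-0.40) were the other members under the unadjusted threshold. The 3 members with a positive difference were Sgk1 (0.11), Myc (0.08) and Zfp36l1 (0.07). Tiparp, an ADP-ribosyltransferase that is a target of the aryl hydrocarbon receptor and is on no list, measured 29.0, 32.0, 34.1 and 34.5 CPM in the control pools and 18.9, 23.7, 18.0 and 23.5 CPM in the treated pools (log2 -0.63, SE 0.12, edgeR adjusted p = 0.833; DESeq2 0.00909, 0.00909 to 1). Its groups did not overlap. Apart from the 10 genes with the smallest p and the 3 leading members of each list, early response and heat shock genes were named after their values were seen.

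**Figure D3:**
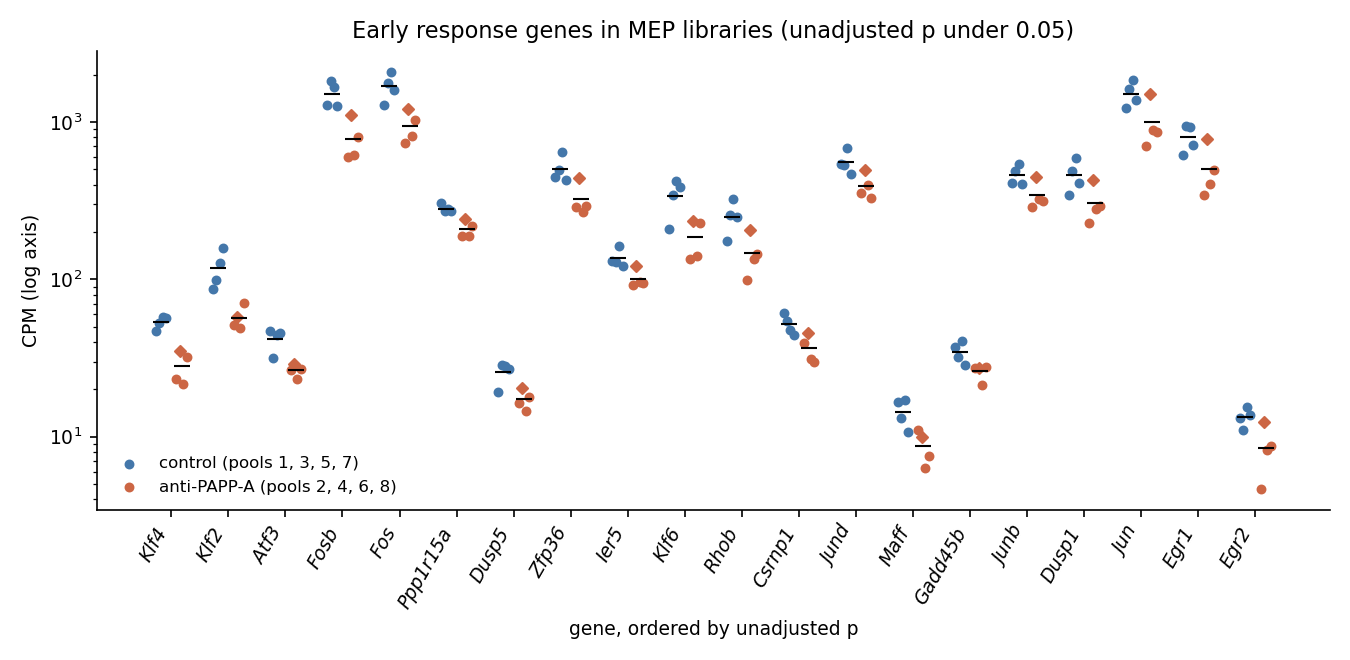
CPM (log axis) of the 20 early response genes with an unadjusted p under 0.05, ordered by p, with control pools in blue, treated pools in orange (pool 4 as a diamond) and group means as bars. Pool 4 is the highest treated pool for most of these genes, such as Jun at 1514 CPM.

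The pools were uneven. The summed level of the list was 9526, 12271, 13568 and 10432 CPM in the control pools and 6131, 10691, 6712 and 7342 CPM in the treated pools. Treated pool 4 lay inside the control range and the other treated pools lay below it. Without pool 4, 31 of 39 members were lower, where 7.76% of all genes were. Without treated pool 2 (1.29% of all genes lower), or without control pool 5 (0.831%), 15 members were lower. Pool 4 was also the treated library with the lowest MEP marker sum, and the part of cell composition in its early response values was not tested.

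NF-kB feedback and inflammatory genes included 7 of 28 tested members that were lower (background 1.69%) and 1 that was higher (background 1.65%). Their median was -0.30. Without treated pool 4 there were 12 lower members, where 7.76% of all genes were lower. Rel, an NF-kB subunit, measured 21.5, 28.8, 23.5 and 23.1 CPM in the control pools and 15.0, 17.3, 6.87 and 13.2 CPM in the treated pools. Its groups were separate (log2 -0.87, SE 0.23, edgeR adjusted p = 0.999). The chemokine gene Cxcl2 had a log2 difference of -0.46 without overlap. The remaining lower members, named after their values were seen, were Nfkbiz, Tnfaip3, Socs3, Ccl3 and Nfkbia, all feedback regulators or chemokines. Socs2, a suppressor of cytokine signalling downstream of STAT5, was the higher member, at 0.801 to 1.24 CPM in control and 1.46 to 3.82 CPM in treated libraries (log2 1.13, SE 0.38, adjusted p = 0.999). Among FOXO targets 4 of 25 were lower and 0 higher, and 3 of the 4 (Klf2, Klf6 and Gadd45b) are early response genes as well; the fourth was Tob1, an antiproliferative protein (log2 -0.26). Interferon-stimulated genes had a median of 0.0076, with 1 of 33 higher and 0 lower.

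Heat shock and chaperone genes leaned upward. These proteins fold clients, and many but not all are switched on by HSF1, which binds inverted GAA repeats. Of 31 tested members 7 were higher at the unadjusted threshold (background 1.65%) and 0 lower, and 4 had separate groups (background 1.44%). The median log2 difference was 0.12. The summed level of the list overlapped, at 19073 to 22567 CPM in control and 21438 to 23859 CPM in treated libraries. Against the control mean, its median log2 position was 0.02, -0.08, -0.06 and 0.11 in control pools 1, 3, 5 and 7. In treated pools 2, 4, 6 and 8 it was 0.08, 0.05, 0.21 and 0.19, so control pool 7 lay above treated pools 2 and 4. Hsph1, which encodes the HSP110 nucleotide exchange factor, measured 300, 303, 246 and 330 CPM in the control pools and 349, 522, 384 and 428.5 CPM in the treated pools, so that each treated pool exceeded each control pool (log2 0.51, SE 0.14, edgeR adjusted p = 0.999). Hspa4l, another member of the HSP110 family, was at 82.7 ± 5.78 and 113 ± 18.7 CPM (log2 0.45), and Chordc1, an HSP90 partner, at 111 ± 13.9 and 148 ± 16.9 CPM (log2 0.42), both without overlap. Ahsa1, the HSP90 ATPase activator, was the fourth (log2 0.19). The constitutive HSP70 gene Hspa8 (0.30) and the co-chaperones Stip1 (0.23) and Dnaja1 (0.26) were counted with overlapping groups. Of the 31 differences 24 were positive and 7 negative. The lowest were those of Hspb1 at -0.65, Hspa1a at -0.40, Dnajb9 at -0.28, Hspa1b at -0.22 and Dnajb1 at -0.15. None of these was under the unadjusted threshold. Hspa1a has a near-identical copy in Hspa1b, and the split of reads between them is uncertain. The count of higher members was 4 without control pool 5 (0.728% of all genes) or without treated pool 8 (1.17%), and 10 without treated pool 4 (3.90%).

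The windows of 2 of these genes are shown because they hold the heat shock element searched for, a run of 3 GAA units in alternating orientation, each 2 bases from the next. Capitals mark it on either strand.
Hsph1, chr5:149636287-149636586 (minus strand): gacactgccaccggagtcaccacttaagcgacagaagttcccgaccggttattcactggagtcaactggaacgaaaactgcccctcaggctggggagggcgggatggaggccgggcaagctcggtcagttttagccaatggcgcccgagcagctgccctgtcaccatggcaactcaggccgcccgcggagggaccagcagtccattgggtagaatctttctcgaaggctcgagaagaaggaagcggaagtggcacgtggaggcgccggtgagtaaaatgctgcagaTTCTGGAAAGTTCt
Chordc1, chr9:18292017-18292316 (plus strand): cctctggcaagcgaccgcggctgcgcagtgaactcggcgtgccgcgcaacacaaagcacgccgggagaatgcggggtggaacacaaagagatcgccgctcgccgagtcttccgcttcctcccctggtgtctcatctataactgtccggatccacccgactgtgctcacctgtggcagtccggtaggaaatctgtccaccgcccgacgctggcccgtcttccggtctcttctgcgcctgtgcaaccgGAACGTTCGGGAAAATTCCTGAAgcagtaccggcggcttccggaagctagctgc
The Hsph1 window is the more upstream of 2 starts, and the 3 matches of Chordc1 overlap. This element stood in the windows of 4 of 26 heat shock genes with a window (Chordc1, Hspd1, Hspe1 and Hsph1). It stood in 0 of 34 early response genes, against 0.662% of genes. Hspa8, Hsp90aa1 and Hsp90ab1 had no window. Hspd1 (minus strand) and Hspe1 (plus strand) held 2 matches each, and whether these are the same stretch was not checked. Hspd1 had a log2 difference of 0.18 and Hspe1 of 0.12.

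Hmox1, which encodes haem oxygenase 1, the enzyme that breaks haem into biliverdin, iron and carbon monoxide, was low in MEP. It measured 0.881, 1.55, 1.15 and 1.10 CPM in the control pools and 6.90, 5.06, 2.63 and 3.87 CPM in the treated pools. The groups did not overlap, and the means were 1.17 ± 0.279 and 4.62 ± 1.82 CPM (n = 4 and 4). The log2 difference was 2.00 (SE 0.34, edgeR adjusted p = 0.540; DESeq2 0.000736, 0.000736 to 1 over 16 alternatives). The gene lies on chromosome 8 (75093621 to 75100589, plus strand). Macrophages of the marrow express Hmox1 strongly. The macrophage marker sum was also higher in the treated group, at 3.01 to 5.68 CPM in control and 5.85 to 17.8 CPM in treated libraries. Within the controls the order differed, since pool 1 had the highest sum (5.68 CPM) and the lowest Hmox1 (0.881 CPM). Vcam1 made up most of that sum in each library, at 2.29 to 4.80 CPM in control and 3.80 to 12.8 CPM in treated libraries. C1qa was at 0 to 0.221 CPM in control and 0.228 to 1.36 CPM in treated libraries, C1qb at 0 to 0.32 and 0.292 to 1.37 CPM, and Adgre1 at 0 to 0.488 and 0.292 to 1.85 CPM. Spic was at 0.32 to 0.573 CPM in control and 0.114 to 0.723 CPM in treated libraries, so that the groups were separate for C1qa alone of the 5. Other sorts expressed some of these markers at higher levels. Unscaled Vcam1 was at 37.8 to 82.1 CPM in GMP, 12.7 to 41.0 CPM in CLP and 0.994 to 9.31 CPM in HSC. Unscaled Adgre1 was at 4.65 to 10.6 CPM in GMP. In the list of monocyte, macrophage and dendritic genes, 17 of 20 differences were negative. Treated pool 2 was the highest for Hmox1 and for the marker sum. The part of macrophage RNA in the Hmox1 value was not tested.

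The other haem, iron and NRF2 genes differed less. Over the 28 tested members of the list, Hmox1 among them, 3 were higher (background 1.65%) and 0 lower (background 1.69%), with a median of 0.11. The 3 were Hmox1, Tfrc and Ireb2. Tfrc, the transferrin receptor, measured 487, 421, 364 and 451 CPM in the control pools and 516, 403, 651 and 654 CPM in the treated pools (log2 0.37, SE 0.16, adjusted p = 0.999). Pools 2, 6 and 8 lay above all controls, and pool 4 among them. Ireb2, an iron-responsive RNA-binding protein, had a log2 difference of 0.21 with overlapping groups. Haem synthesis had 0 of 16 members under the threshold in either direction and a median of 0.12. Its rate-limiting erythroid enzyme Alas2 measured 2.71 ± 0.82 and 4.17 ± 2.71 CPM.

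Pde2a, a phosphodiesterase that degrades cAMP and cGMP, had the smallest p in the comparison, through a pair of overlapping gene models. The model ENSMUSG00000030653.17 (chromosome 7, 101410886 to 101512819, plus strand, GRCm38) measured 8.89, 18.8, 6.45 and 6.88 CPM in the control pools and 0 in each of the 4 treated pools. That is at least 122-fold lower, set against a floor of 3 counts over the treated group (edgeR adjusted p = 0.173; DESeq2 8.88e-12, 8.88e-12 to 1 over 17 alternatives). The model ENSMUSG00000110195.1 (101421691 to 101512827, plus strand) measured 2.00, 2.21, 1.15 and 2.61 CPM in the control pools and 23.9, 35.0, 7.46 and 9.68 CPM in the treated pools, opposite to the first (log2 3.19, SE 0.50, edgeR adjusted p = 0.540; DESeq2 6.84e-08, 6.84e-08 to 1). The models share 3955 exonic bases, which are 95.6% of the first and 64.3% of the second, and the GENCODE M21 annotation gives the first the name Gm45837. The values are estimates of how reads divide between such models, and that division is uncertain here.

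Summed over both models, Pde2a measured 10.9, 21.0, 7.60 and 9.49 CPM in the control pools and 23.9, 35.0, 7.46 and 9.68 CPM in the treated pools. Pools 2 and 4 exceeded the controls, and pools 6 and 8 did not (log2 0.65, SE 0.49, edgeR adjusted p = 0.999). The first model was also at 0 counts in all 4 treated HSC libraries, against 144 to 334 counts (17.9 to 37.0 unscaled CPM) in control HSC. Treated HSC pool 6, a library of 107412 counts, held only 2 counts over both models, so its 0 says little. In GMP it was at 0 in control pools 1 and 7, and in CLP in control pools 3, 5 and 7 and treated pools 2 and 8.

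**Figure D4:**
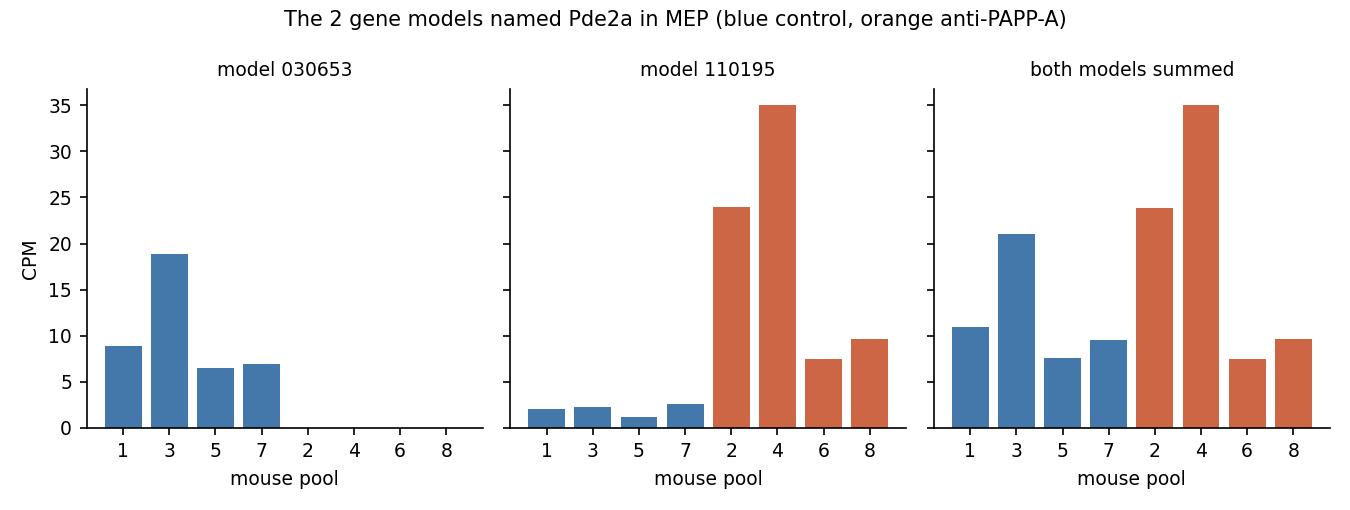
CPM of the pair of gene models named Pde2a and of their sum (panels) in each MEP library (bars), with control pools in blue and treated pools in orange. The first model is at 0 in every treated pool, the other is higher there, and the sums overlap.

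The IGF axis itself was sparsely expressed in MEP. Pappa, which encodes the target of the antibody, had 24 counts over the 4 control libraries and 2 over the 4 treated libraries, or 0.160, 0.111, 0.430 and 0.439 CPM against 0, 0, 0.146 and 0.114 CPM. It did not pass the low-count filter and was not tested, and a transcript is no check of an antibody against the protein. Of 21 genes on the list 5 were tested, and 1 was higher (background 1.65%) and 0 lower (background 1.69%). Another 4 (Ins2, Igfbp1, Igfbp2 and Igfbp3) had 0 counts in all 8 libraries. The ligand Igf1 stood at 0 to 1.14 CPM. Irs2, an adaptor of the insulin and IGF-1 receptors, measured 18.3, 14.2, 12.5 and 16.7 CPM in the control pools and 19.8, 22.6, 18.3 and 23.4 CPM in the treated pools, with pool 6 just under control pool 1 (log2 0.44, SE 0.15, edgeR adjusted p = 0.999). Igfbp4, the binding protein that PAPP-A cuts, was at 213 ± 68.9 and 170 ± 53.5 CPM (log2 -0.32). The receptors Igf1r (126 ± 17.8 and 115 ± 23.7 CPM, log2 -0.13), Igf2r (36.1 ± 8.21 and 43.6 ± 6.74 CPM, 0.26) and Insr (29.5 ± 3.31 and 29.0 ± 4.84 CPM, -0.02) overlapped between groups. Downstream insulin and IGF signalling genes had 0 of 25 under the threshold in either direction and a median of 0.03.

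Erythroid genes had small positive medians. The shares of all genes at the unadjusted threshold were 1.65% higher and 1.69% lower. Red cell membrane genes had 0 of 26 members under the threshold and a median of 0.17. Erythroid progenitor genes had 1 higher (Tfrc) and 1 lower (Tspan32, log2 -0.25) of 29, with a median of 0.11. The erythroid and megakaryocyte transcription factors had a median of 0.0049 and 1 of 33 higher, Tal1 (211 ± 8.32 and 240 ± 13.7 CPM, log2 0.18), without overlap. All 4 tested globin genes had positive differences, with a median of 0.90, and 1 was counted, Hba-a2, at 56.8, 44.8, 37.9 and 43.1 CPM in the control pools and 193, 28.0, 96.8 and 79.2 CPM in the treated pools. Pool 4 lay below all controls and the other treated pools above them. Without pool 4 the erythroid progenitor list had 6 of 29 higher and the membrane and haem synthesis lists 3 each, where 3.90% of all genes were. Without pool 2 the globin median was 0.08 and none was counted. Hba-a1 and Hba-a2 are near-identical, as are Hbb-bs and Hbb-bt, so the division between each pair is uncertain.

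Megakaryocyte and platelet genes mostly had negative differences. Of 32 tested, 28 were negative, 3 were lower at the unadjusted threshold (background 1.69%), 0 were higher, and the median was -0.38. Plek, a platelet substrate of protein kinase C, measured 91.6, 177, 120 and 100 CPM in the control pools and 55.0, 102, 53.2 and 64.2 CPM in the treated pools, with pool 4 alone inside the control range (log2 -0.83, SE 0.26, edgeR adjusted p = 0.999). Gp9, a subunit of the von Willebrand factor receptor, measured 5.27 to 11.1 CPM in control and 4.28 to 5.17 CPM in treated libraries, without overlap (log2 -0.76). The protease inhibitor gene Serpine2 had a log2 difference of -0.83 with overlap. Treated pool 4 had the highest summed level of this list among the treated pools. Without it the list had 16 of 32 lower and a median of -0.63, where 7.76% of all genes were lower. The counts without treated pools 2, 6 or 8 are not given here. The controls were uneven too. Against the control mean, the list's median log2 position was -0.26, 0.40, 0.21 and -0.36 in control pools 1, 3, 5 and 7. In treated pools 2, 4, 6 and 8 it was -0.50, 0.22, -0.48 and -0.82. Control pools 1 and 7 thus lay below treated pool 4. Stem cell and multipotent progenitor genes had 3 of 29 lower (Robo4, Flt3 and Hoxa5) and a median of -0.27. Without pool 4 these were 13 of 29 and -0.53, and without pool 2 they were 0 of 29 and -0.14. The platelet marker sum was 27.0 to 62.0 CPM in control and 18.6 to 36.7 CPM in treated libraries.

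Growth and metabolism lists differed little. In the main comparison 1.65% of all genes were higher and 1.69% lower at the unadjusted threshold. Replication genes (46), mitotic genes (44), MYC and ribosome biogenesis genes (37), cytosolic ribosomal protein genes (80) and nuclear respiratory chain genes (59) each had 0 members under the threshold in either direction. Their medians were 0.05, 0.08, 0.06, 0.0088 and 0.07 in that order. Without treated pool 4, 9 replication, 2 mitotic, 2 MYC, 1 ribosomal and 6 respiratory chain genes were higher, where 3.90% of all genes were. The 15 transcripts encoded in mitochondria all had negative differences, with a median of -0.18 and 0 under the threshold. Mitochondrial counts were 5.63% to 9.75% of the control totals and 5.48% to 9.14% of the treated totals, with the highest shares in control pool 7 and treated pool 8. Cyclin and cell cycle brake genes had 1 of 20 higher, the D-type cyclin Ccnd3 (log2 0.19), and 1 lower, Tob1. Cholesterol and lipid synthesis had 2 of 35 lower, among them the sterol dehydrogenase Nsdhl (-0.23). Glycolysis and hypoxia genes had 2 higher (Ero1l and P4ha1) and 1 lower (Ddit4) of 37, p53 targets 2 lower (Pmaip1 and Plk2) of 29, and unfolded protein genes 1 in each direction of 31. Cytokine receptor genes had 2 of 34 lower, the Wnt receptor Fzd6 (8.72 ± 1.84 and 4.58 ± 0.762 CPM, log2 -0.92) and Flt3 (-0.61), and 1 higher. Without treated pool 4 the lower members numbered 10 of 35 in the cholesterol list, 9 of 34 in the cytokine receptor list, 7 of 37 in the glycolysis list and 5 of 29 in the p53 list, where 7.76% of all genes were lower.

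Of the other genes with the smallest p, Ccdc117 measured 60.8, 61.1, 63.1 and 62.4 CPM in the control pools and 85.2, 89.1, 87.0 and 73.7 CPM in the treated pools. The control pools lay close together and every treated pool above them (log2 0.44, SE 0.08, edgeR adjusted p = 0.658; DESeq2 0.000881, 0.000881 to 1). Il1rl1, the receptor of interleukin 33 and a mast cell and basophil gene, measured 67.5, 73.2, 62.8 and 63.1 CPM in the control pools and 91.2, 96.2, 88.3 and 81.2 CPM in the treated pools, also without overlap (log2 0.42, SE 0.09, edgeR adjusted p = 0.876; DESeq2 0.00765, 0.00765 to 1). The summed level of 4 mast cell and basophil markers overlapped, at 21.5 to 91.5 CPM in control and 34.2 to 60.7 CPM in treated libraries.

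Lists of other lineages moved with single libraries. Over all genes tested, 1.65% were higher and 1.69% lower at the unadjusted threshold. Neutrophil maturation genes had a median of 1.74, with 2 of 23 higher (Retnlg and Wfdc21). Without treated pool 2 the median was -0.27 and 21 of 23 differences were negative. Plasma cell genes had a median of 0.60 and 1 of 8 higher (Irf4), and without pool 2 the median was 0.15. Lymphoid genes had 4 of 22 higher, among them the B cell receptor subunit Cd79a (2.10 ± 0.526 and 7.25 ± 5.66 CPM), and 1 lower, with a median of 0.35; without pool 4 it was -0.18. Monocyte, macrophage and dendritic genes had 3 of 20 lower (Klf4, Tcf4 and Flt3) and 1 higher (Vcam1), with a median of -0.22. Primary granule genes had 0 of 26 under the threshold and a median of -0.0079.

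The response of MEP was then set against those of GMP, HSC and CLP, which came from the same mouse pools and batch. HSC had 3 control libraries (pools 3, 5 and 7) and 4 treated libraries, and GMP and CLP had 4 and 4. The lowest library totals were 5111810 counts in GMP, 107412 in HSC and 587316 in CLP. No gene's response differed at an edgeR adjusted p under 0.05: 0 of 14878 against GMP (0%; 256 or 1.72% at an unadjusted p under 0.05), 0 of 15700 against HSC (0%; 1075 or 6.85%) and 0 of 15284 against CLP (0%; 151 or 0.988%). DESeq2 called 3 genes against GMP (both Pde2a models and Gm14303), 0 against HSC and 2 against CLP (Pde2a and Igha). Early response genes had medians of -0.43 in MEP (20 of 39 lower), -0.47 in HSC (18 of 41 lower, background 3.56%), -0.30 in CLP (1 of 37, background 0.128%) and -0.04 in GMP (3 of 40, background 0.463%), each sort fitted alone. Higher members at that threshold numbered 0 in MEP (background 1.65%), 0 in HSC (4.42%), 0 in CLP (0.104%) and 1 in GMP (0.809%). At an adjusted p under 0.05, HSC alone had 1 gene called (0.0069%), the first Pde2a model, and GMP and CLP had 0. Of the differences themselves, 1 of 40 early response genes was lower in MEP than in GMP, 1 of 41 than in HSC and 0 of 40 than in CLP at the unadjusted threshold, with medians of -0.32, 0.02 and -0.20. Over all genes the lower shares were 0.914%, 3.36% and 0.582% in that order.

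Klf4 had a response of -0.41 in GMP, -0.94 in HSC and -0.48 in CLP, and Fosb of -0.58, -1.25 and -0.73, on the log2 scale in the joint fits. For Hmox1 the response in GMP was 0.17, and the MEP response exceeded it by 1.83 (95% interval 0.73 to 2.93). It exceeded the HSC response by 1.48 (0.26 to 2.71) and differed from the CLP response of 2.02 by -0.04 (-2.26 to 2.18). The Irs2 response was -0.16 in GMP, -0.54 in HSC and -0.61 in CLP, and MEP exceeded these by 0.60 (-0.14 to 1.34), 0.98 (0.25 to 1.71) and 1.05 (0.47 to 1.64). None of these differences passed the adjustment, with edgeR adjusted p-values of 0.721 to 0.9999 for Hmox1 and 0.721 to 0.9999 for Irs2. For Hsph1 the differences were 0.22, 0.28 and -0.16 against GMP, HSC and CLP, with intervals that all included 0.

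**Figure D5:**
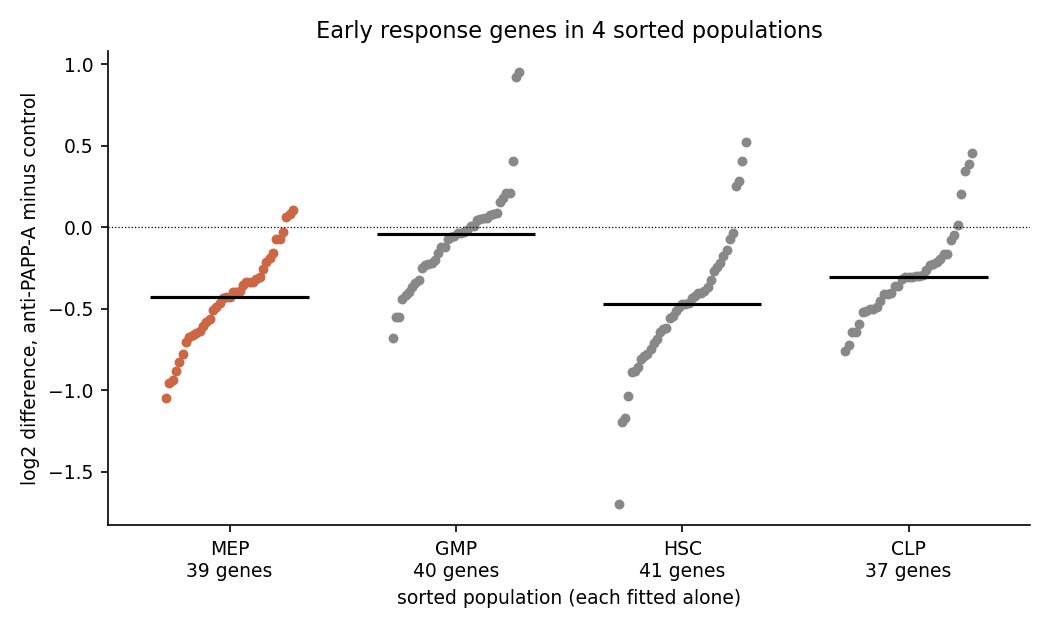
Log2 difference (treated minus control, y axis) of each tested early response gene in 4 sorted populations (x axis), each fitted alone, with the median as a bar. The medians are -0.43 in MEP, -0.04 in GMP, -0.47 in HSC and -0.30 in CLP.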

How the data were processed

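RNA of 8 MEP libraries (4 control and 4 aPAPPA mouse pools) was compared. Per the labels' protocols, libraries were strand-specific and made from DNase-treated total RNA. Per the submitters' processing notes, the authors used FastQC 0.11.5, the build mm10 and Salmon, which estimates transcript abundance without full alignment. No Salmon version or annotation is given in the sources used here. The deposited values are expected counts, already whole numbers and not scaled, per the file's values. The deposited table had 7385832 lines because 18072 genes stood on more than 1 line. In 0 of 3210924 pairs of gene and sample did such lines hold different values, and 1 was kept. Salmon divides reads between overlapping models, so the values of such genes are uncertain.

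Genes were kept by filterByExpr, scaled by trimmed mean of M-values and tested with the robust quasi-likelihood test of edgeR 4.0.16 (R 4.3.3), with Benjamini-Hochberg adjustment over all genes tested at 0.05. The standard error is the log2 difference divided by the square root of F. CPM is given as mean ± SD over pools. DESeq2 1.42.0, limma 3.58.1 and the other alternatives are given in the closing part. Differences of responses were fitted over the libraries of 2 sorts with 4 group means. Scripts were tested on simulated data. Within MEP nothing pairs a control with a treated pool, since no pool number occurs in both groups. The same pool number in another sort marks the same mice.

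Named genes were Pappa and the measured IGF axis, the 10 genes with the smallest p, the 3 members with the smallest p of each of the 36 lists, Car1 and Klf1. This rule gave 106 genes. A further 18, early response and heat shock members under the unadjusted threshold and genes called by DESeq2, were named after their values were seen. So were some list members given by a log2 difference or by name alone, such as Nfkbiz, Hspb1 and Sgk1, whose signs were not checked across the alternatives. Some of these genes are not reported here. The comparison, the members and the lists were chosen with earlier results of these data known. Positions are from GENCODE M21 (GRCm38), which matched 124 of 124 genes, and promoter windows from RefSeq (GRCm38.p6).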

Additional observations from a re-analysis of the deposited data

Results flagged for a closer look

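Among 268 groups of 4 libraries checked, 25 held a library far from the other 3, a gap that chance gives in about 1 in 20 groups. In the marker sums, treated pool 2 stood apart for neutrophil markers at 6426 CPM and plasma cell markers at 75.4 CPM, control pool 1 for plasma cell markers at 13.6 CPM and for reticulocyte and red cell markers at 311.0 CPM, control pool 3 for CLP and B cell markers at 64.0 CPM, and treated pool 4 for T and NK cell markers at 10.6 CPM.

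Single genes of treated pool 2 that lay far above the other treated pools were Retnlg (193 CPM), Wfdc21 (40.7), Hp (77.6), Mgst1 (19.5), Igkc (266 CPM) and Jchain (67.7). In treated pool 4 these were Zfp36 (440.2 CPM), Ier5 (121 CPM), Hoxa5 (4.65) and Srgn (391 CPM), all above the other treated pools. Treated pool 6 was apart for Gadd45b at 21.3 CPM, the lowest value, and for Lpl at 8.63 CPM, the highest value. Among control libraries, pool 1 was high for Jchain (8.17 CPM), Gfi1b (219.8 CPM), Hbb-bs (61.3), Prg2 (10.1) and Hba-a1 (148 CPM), and pool 7 for Mgst1 (2.25) and Plk2 (11.5).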

How the results depend on the processing

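In MEP no alternative left more than 12 genes past an adjusted p of 0.05, where edgeR gave 0. DESeq2 called 12, the fit without the low-count filter 2 (Pde2a and Klf4), and voom with quality weights 1 (Pde2a). Leaving out single pools gave 0 to 1, and the 1 was Pde2a without control pool 3. DESeq2 called 3 genes in the difference from GMP and 2 in that from CLP, and leaving out single pools gave 0 to 1 against GMP. With the mouse pool as a replicate block, which pairs the sorts, each of the 3 differences of responses again had 0 calls (consensus correlation 0.1955 for GMP, 0.0608 for HSC and 0.0751 for CLP). Within MEP no paired analysis was possible because control and treated pools share no number. GMP held no library under 1000000 counts, so leaving out such libraries gave no value there. Leaving out single pools gave 15 to 31 lower early response genes and 4 to 10 higher heat shock genes, counts chosen after seeing the data.

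Of 124 named genes, 117 kept their sign in every alternative. The summed Pde2a models, chosen after seeing the data, turned the first model's difference to 0.65. Without treated pool 2, Retnlg was -0.20, Mgst1 -0.28, Prg2 -0.30 and Car1 -0.11. Without treated pool 6, Rps27l was -0.0068, Insr 0.0167 and Car1 -0.0525. Insr was 0.0532 without control pool 3 and 0.0297 without treated pool 8. Car1 was -0.0740 without control pool 3, -0.0437 without control pool 7, -0.0088 with upper-quartile factors, -0.0057 without the filter and -0.0009 with a minimum of 5 CPM in 4 libraries. Leaving out single pools moved the log2 difference from -0.20 to 4.77 for Retnlg, from -0.28 to 2.10 for Mgst1, from -0.30 to 1.79 for Prg2, from -0.0068 to 0.24 for Rps27l, from -0.15 to 0.05 for Insr and from -0.11 to 0.14 for Car1. The cause of these reversals was not tested. The scaling alternatives moved the median of all genes by under 0.1. With 4 pools a group, small differences may not be detectable at this depth and spread.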

Other observations

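The MEP libraries held very low levels of stromal transcripts. The sum of 3 stromal markers was 1.34 to 2.15 CPM in control and 0.797 to 4.86 CPM in treated libraries, and 3 endothelial markers summed to 13.1 to 21.0 CPM and 17.0 to 22.7 CPM. The marrow stromal gene list had 8 of 35 members tested, with a median log2 difference of 0.28. Transcripts of the other IGF axis members below the filter included the stanniocalcin genes Stc1 (41 counts over the control and 20 over the treated libraries) and Stc2 (29 and 14 counts), whose proteins inhibit PAPP-A, and Igfbp7 (58 and 16 counts). Control libraries had more total counts, so these pairs of counts are not on one scale.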
